A study of Mus musculus with 7 samples.

Results

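The 9 genes described here place, copy and remove methyl groups on cytosine in mouse DNA. They are Dnmt1, Dnmt3a, Dnmt3b, Dnmt3l, Uhrf1, Tet1, Tet2, Tet3 and Tdg. They were chosen by name and not by a measured value, and all 9 were found among the 54838 genes of the deposited count table. RNA was sequenced from 7 mouse cultures in 3 groups. The M colonies were 3 colonies of induced pluripotent stem cells (iPSC) made from germinal center B cells sorted for a Myc-GFP reporter at the endogenous gene, which marks those that had received help from T follicular helper cells. The titles do not spell out M, which is read here as the Myc-GFP source, the only source the design names beside bulk germinal center cells. The GC colonies were 3 iPSC colonies from germinal center B cells taken in bulk. The last group was 1 library of V6.5, an embryonic stem cell line.

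What both colony groups shared was their source and handling. Splenic B cells of mice labelled male, 9 days after immunization with SRBC, were sorted as B220+ CD38- Fas+. They spent 6 days on mouse embryonic fibroblast feeders with cytokines, 10 days with doxycycline (Dox) to drive reprogramming, and 4 days without it. Each colony is 1 picked clone, with a single passage on gelatin and a pre-plating step of 45 min against leftover feeders. All 3 groups grew in serum with LIF, a cytokine that holds mouse stem cells in self-renewal. The sources used here give no mouse age, no donor for a colony, no batch and no list of the Dox-driven genes, so cell source and donor cannot be told apart.

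DNA methylation in mammals sits mainly on cytosines followed by guanine (CpG). Dnmt3a and Dnmt3b write new marks, helped by Dnmt3l, which has no catalytic activity of its own. Dnmt1 copies marks to the new strand after replication, brought to sites methylated on only the old strand by Uhrf1. The Tet enzymes oxidize methylcytosine, and Tdg excises the more oxidized forms so that base repair can restore plain cytosine. In mouse embryonic stem cells kept in serum the balance of these activities is known to leave the genome well methylated, and reprogramming has to rewrite the methylation pattern of the starting cell.

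Levels below are in CPM, a gene's share of the counts of its library, with library sizes scaled by the TMM method. A change is a log2 ratio ± its standard error (SE), and "passed" means a Benjamini-Hochberg adjusted p under 0.05 over all tested genes in the edgeR quasi-likelihood test. The SE was worked back from that test, as the absolute log2 change divided by the square root of its F statistic. Total counts ran from 31139508 to 35728921 a library, and a count of 0 allows up to 3 counts, or 0.0840 to 0.0963 CPM, for counting error alone. The members had 282 counts (Tet3 in V6.5) to 16873 counts (Uhrf1 in V6.5) a library. In bulk RNA, fewer cells of a type and less RNA per cell cannot be told apart.

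Before the members are compared, 2 libraries need naming. M colonies 2 and 3 had 0 counts at all 9 Y-linked genes examined, whereas these genes summed to 134 CPM in M colony 1, 117 to 138 CPM in GC colonies and 25.5 CPM in V6.5. The zeros go against the label of these 2 colonies, whose source mice are given as male. Results are therefore also given without these colonies where that changes a call. The colonies carried the stem cell genes Pou5f1 (478 to 502 CPM in M colonies, 372 to 378 CPM in GC colonies, 660.4 CPM in V6.5) and Nanog (375 to 456, 477 to 488 and 739.5 CPM in the same order). In V6.5 the 16 stem cell genes examined summed to 8546 CPM. In M colonies the sum was 5900 to 6308 CPM and in GC colonies 6014 to 6413 CPM. Against V6.5, 10 of the 16 passed as lower and 1 as higher (median change -0.40), where 7.56% and 8.76% of all genes did. B cell and germinal center genes (20) summed to 75.7 to 76.4 CPM in M colonies, 75.5 to 84.7 CPM in GC colonies and 94.0 CPM in V6.5. Most of that sum was S1pr2 (41.6 to 43.4, 39.8 to 46.6 and 47.6 CPM in the same order) and Mef2b (13.1 to 13.6, 14.2 to 16.8 and 26.1 CPM). Of the defining B cell markers, Blk was at 0 counts in all 7 libraries and Ms4a1 in 6. Others were detected in every library: Cd79a at 42 to 108 counts, Cd79b at 48 to 104 and Pax5 at 2 to 26. Ebf1 had 98 to 158 counts and Cd74 79 to 161, V6.5 included. Genes of the primitive endoderm, an extraembryonic lineage, differed most: 19 of them summed to 9280.2, 6184 and 9509.6 CPM in M colonies 1, 2 and 3, to 5545 to 6408 CPM in GC colonies, and to 2308 CPM in V6.5. Fibroblast genes (22) summed to 1178 to 1504 CPM in M colonies, 1172 to 1279 CPM in GC colonies and 708 CPM in V6.5. The part of these other cell types in the results below was not tested.

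The main pattern among the 9 genes was a set of higher levels of the de novo methylation genes in both kinds of colony than in V6.5. Dnmt3b was 3.11-fold higher in the mean of the colonies, Dnmt3a 1.48-fold and Dnmt3l 1.38-fold. Tet3 was 1.91-fold higher and Tet2 was at 0.709 of the V6.5 level. The maintenance pair Dnmt1 and Uhrf1, and Tet1, did not pass. Between the colony groups Tdg stood out at 2.10-fold higher in M colonies, beside an opposite difference at a near-identical pseudogene, given with Tdg below.

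**Figure D1:**
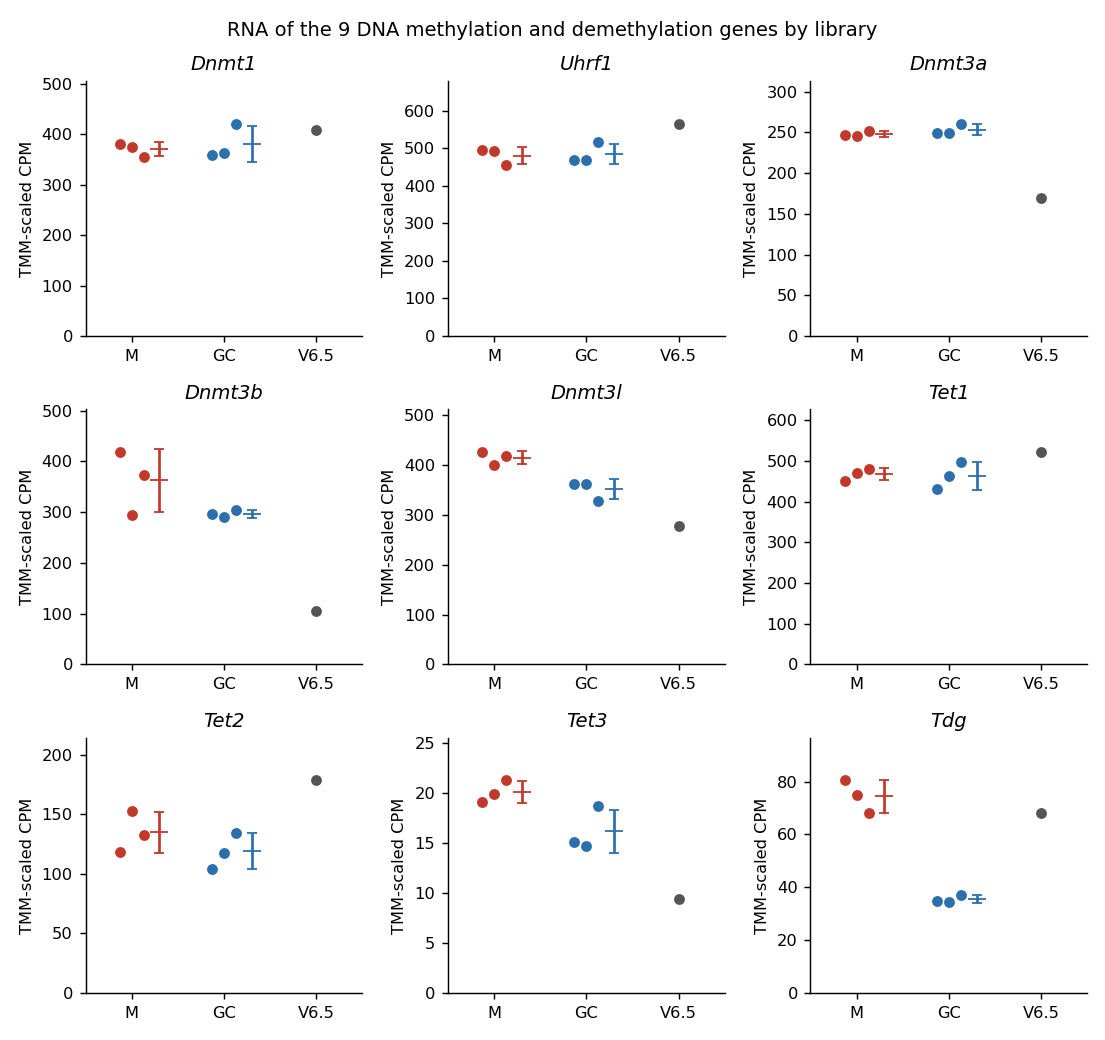
Level of each of the 9 genes in TMM-scaled CPM (vertical axis, from 0) in each library of the M colonies, the GC colonies and V6.5 (points), with the mean and SD of the 3 colonies beside each colony group. Dnmt3b lies between 289 and 418 CPM in all 6 colonies against 105 CPM in V6.5, and Tdg lies at 34.3 to 37.2 CPM in GC colonies, below the M colonies and V6.5.

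In M colonies against GC colonies, 2 of the 9 genes passed, Tdg and Dnmt3l, both higher, and 0 were lower. Of 18166 genes tested, 3.97% passed, 1.7% higher and 2.27% lower. The median log2 change of the 9 members was 0.18, against 0.00266 over all genes tested. At an unadjusted edgeR p under 0.05, 4 members were higher and 0 lower, the 2 others being Dnmt3b and Tet3. The share of all genes at that threshold is not given, and the shares above hold for adjusted p only. The values of all 3 M colonies lay above all 3 GC colonies for 3 of 9 members (Dnmt3l, Tet3 and Tdg), where 10.1% of tested genes did so in that direction. Fits without M colonies 2 and 3 take the 1 M colony left to vary like the GC colonies. There the change was 1.18 for Tdg, 0.49 for Dnmt3b and 0.28 for Dnmt3l.

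In the 6 colonies against V6.5, 6 of 9 members passed, 4 higher (Dnmt3a, Dnmt3b, Dnmt3l and Tet3) and 2 lower (Tet2 and Tdg). By group, Tdg changed by -0.94 in GC colonies and by 0.13 in M colonies, and only the first passed. With its copies summed, the Tdg change of all colonies was -0.11 and did not pass. Of 20502 genes tested, 16.3% passed, 8.76% higher and 7.56% lower. The median change of the members was -0.12, against 0.0153 over all genes. V6.5 has 1 library, so the spread in this comparison came from the colonies and was taken to hold for V6.5 too. All 6 colonies lay on the same side of V6.5 for 7 of 9 members, above it for Dnmt3a, Dnmt3b, Dnmt3l and Tet3 and below it for Uhrf1, Tet1 and Tet2, as they did for 51.4% of genes. In M colonies against V6.5, 4 members passed, all of them higher, where 16.2% of genes passed (8.84% higher, 7.37% lower). In GC colonies against V6.5, 4 were higher and 2 lower, where 13% passed (7.53% higher, 5.51% lower). These comparisons share the V6.5 library.

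**Figure D2:**
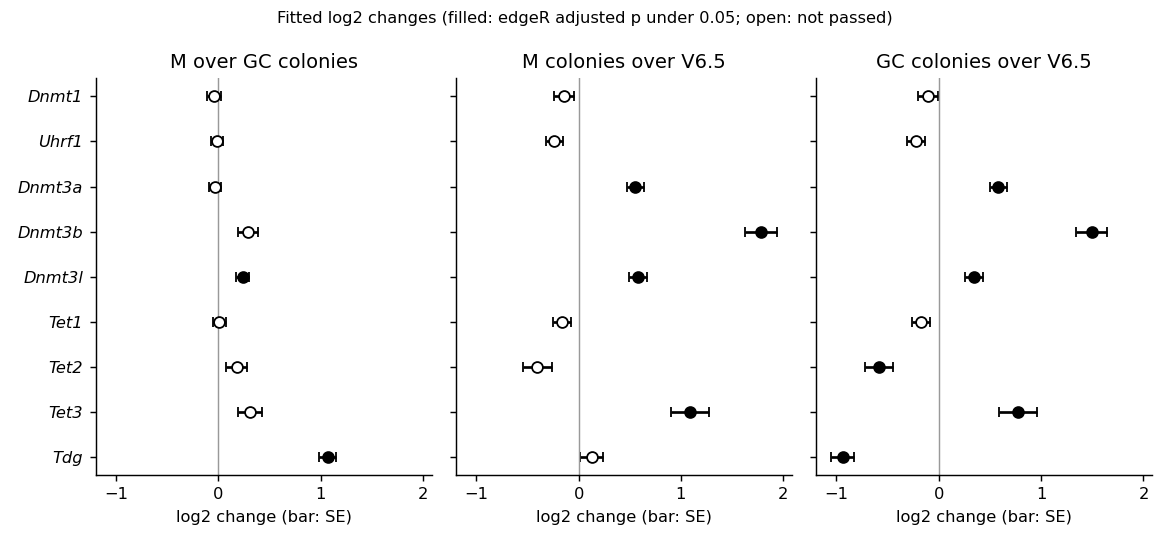
Fitted log2 change of each of the 9 genes (points, with SE as bars) in M over GC colonies, M colonies over V6.5 and GC colonies over V6.5, filled where the edgeR adjusted p is under 0.05. Dnmt3a, Dnmt3b, Dnmt3l and Tet3 lie to the right and are filled in both panels against V6.5, and Tdg has a log2 change of 1.07 in the first panel and -0.94 in the last.

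The maintenance genes come first. Dnmt1 (chr9:20907209-20959888, minus strand, GRCm38 as are all positions here) encodes the methyltransferase that acts behind the replication fork. It had 381, 375 and 356 CPM in M colonies 1, 2 and 3, 358, 363 and 421 CPM in GC colonies 1, 2 and 3, and 409 CPM in V6.5. The colony groups overlapped, and GC colony 3 alone was above V6.5. The log2 change was -0.04 ± 0.07 for M over GC colonies (edgeR adjusted p = 0.831) and -0.12 ± 0.09 for the colonies over V6.5 (edgeR adjusted p = 0.402).

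Uhrf1 (chr17:56303321-56323486, plus strand) encodes the ubiquitin ligase that reads hemimethylated CpG. It had 494, 493 and 454 CPM in M colonies, 468, 469 and 516 CPM in GC colonies and 565 CPM in V6.5. All 6 colonies were below V6.5, yet the change of -0.23 ± 0.08 did not pass (edgeR adjusted p = 0.0641). M and GC colonies overlapped (log2 change -0.02 ± 0.06, edgeR adjusted p = 0.943). Uhrf1 has a processed pseudogene, Gm5648 (98.3% identical), and summing both left the change against V6.5 at -0.23 (edgeR adjusted p = 0.0573). Uhrf1 passed against V6.5 without GC colony 3 (-0.25, edgeR adjusted p = 0.0143) and with no filter on low counts (edgeR adjusted p = 0.0418).

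The promoters of Dnmt1 and Uhrf1 are shown together because they act in the same step. Each window runs from 250 bases before to 50 after a transcription start in RefSeq (GRCm38.p6), printed 5′ to 3′ on the gene's strand. All 9 members matched that table, with 16 promoters. The 2 below are those with most CpG of each gene, 33 each, where the median of 32851 promoters was 7. Capitals mark the motifs TTTGGCGC and TTTCGCGC, forms of the site bound by E2F factors, which drive S phase genes, searched on both strands (the second reads GCGCGAAA on the opposite strand).
Dnmt1 chr9:20952574-20952873, minus strand: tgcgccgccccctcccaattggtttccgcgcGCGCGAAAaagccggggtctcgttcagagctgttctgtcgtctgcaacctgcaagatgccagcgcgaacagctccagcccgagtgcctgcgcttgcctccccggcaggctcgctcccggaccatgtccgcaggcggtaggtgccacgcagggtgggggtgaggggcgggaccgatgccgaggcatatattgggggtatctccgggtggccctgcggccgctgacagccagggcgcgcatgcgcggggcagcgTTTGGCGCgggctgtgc
Uhrf1 chr17:56304063-56304362, plus strand: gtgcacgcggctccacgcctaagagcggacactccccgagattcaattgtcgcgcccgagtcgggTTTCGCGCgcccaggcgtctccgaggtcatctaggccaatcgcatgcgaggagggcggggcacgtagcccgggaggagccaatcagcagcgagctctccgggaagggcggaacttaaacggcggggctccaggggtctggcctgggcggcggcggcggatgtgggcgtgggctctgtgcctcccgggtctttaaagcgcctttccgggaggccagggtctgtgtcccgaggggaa
TTTCGCGC was found in both windows and in 0.323% of all promoters, and TTTGGCGC in that of Dnmt1 and in 0.514% of all promoters. None of the other 14 promoters of the 9 genes held either motif. A match is a description of letters and not of binding.

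S phase genes, whose RNA moves with the share of cycling cells, were therefore set beside the maintenance pair. In M over GC colonies, where 3.97% of all genes passed by edgeR, 0 of 24 passed by edgeR, 0 by DESeq2 and 0 by limma-voom. At an unadjusted edgeR p under 0.05 the count was 2, both higher, with no share of all genes given at that threshold. In the colonies over V6.5, 6 of 24 fell and 0 rose, with a median change of -0.15, where 7.56% of all genes fell and 8.76% rose. Cdt1, which licenses replication origins, fell to 228 ± 11.1 CPM in the colonies, against 324 CPM in V6.5, and Mcm5, a helicase subunit, to 457 ± 7.86 CPM, against 592 CPM (SD, n = 6 colonies, 1 V6.5 library). Gins2, of the same replicative helicase, and Rrm2, which makes deoxyribonucleotides, fell by 0.35 and 0.34 on the log2 scale, and Gins2 did not pass without M colonies 2 and 3 (edgeR adjusted p = 0.0679) or without GC colony 2 (0.0536). Without M colonies 2 and 3, 3 of the 24 fell. Of 12 partners of maintenance methylation, 0 passed in M over GC colonies by edgeR, DESeq2 or limma-voom, beside the same 3.97% by edgeR. At an unadjusted edgeR p under 0.05, 2 were lower, again with no share of all genes to set beside them. In the colonies over V6.5, where 7.56% of all genes fell, 2 of the 12 fell. Those were Cdca7l, a partner of the remodeler Hells (-0.48 ± 0.13, edgeR adjusted p = 0.0193), and Pcna, the replication clamp that Dnmt1 binds (-0.26 ± 0.07, edgeR adjusted p = 0.0261). Neither passed without M colonies 2 and 3 (edgeR adjusted p = 0.0561 and 0.0793), and Pcna did not without GC colony 2 or M colony 3 (up to 0.0754). Hells, which opens chromatin for methylation, was at 342 ± 1.78 CPM in M colonies, 357 ± 25.1 CPM in GC colonies and 335 CPM in V6.5. Uhrf2, Dppa3, Zfp57 and Trim28 passed in neither comparison, the lowest edgeR adjusted p being 0.0679, for Trim28 in M over GC colonies. Trim28, a corepressor, was lower in M than in GC colonies and passed without GC colony 3 (-0.23, edgeR adjusted p = 0.0107), with the replicate block (0.0304) and with no filter (0.0225). Zfp57, which guards methylation at imprinted genes, was lower in the colonies than in V6.5 and passed without M colonies 2 and 3 (-0.33, edgeR adjusted p = 0.0276).

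The de novo genes follow. Dnmt3b (chr2:153649450-153687730, plus strand) encodes the methyltransferase that is most abundant in the early epiblast of the mouse. It had 418, 295 and 374 CPM in M colonies 1, 2 and 3, 289 to 304 CPM in GC colonies and 105 CPM in V6.5. Every colony was above V6.5, with a log2 change of 1.64 ± 0.15 (edgeR adjusted p = 1.42e-05), and this held for M colonies alone (1.78 ± 0.16, edgeR adjusted p = 9.63e-06) and GC colonies alone (1.49 ± 0.15, edgeR adjusted p = 3.86e-05). M colonies 1 and 3 were above all GC colonies and M colony 2 was among them. The difference between the colony groups was 0.29 ± 0.10 and did not pass (edgeR adjusted p = 0.149). It passed without M colony 2 (0.42, edgeR adjusted p = 0.00607), without M colonies 2 and 3 (0.49 ± 0.08, edgeR adjusted p = 0.0135) and with no filter on low counts (edgeR adjusted p = 6.70e-04). The SD of log2 CPM of Dnmt3b was 0.26 among M colonies and 0.04 among GC colonies, against medians over all tested genes of 0.15 in each group. Its rodent paralog Dnmt3c, 93.9% identical over 1434 aligned bases, was at 0.665 to 1.25 CPM in M colonies, 0.220 to 0.749 CPM in GC colonies and 0.235 CPM in V6.5.

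The Dnmt3b promoter is printed because this gene had the largest change against V6.5 among the 9. Capitals mark its 30 CpG.
Dnmt3b chr2:153649199-153649498, plus strand: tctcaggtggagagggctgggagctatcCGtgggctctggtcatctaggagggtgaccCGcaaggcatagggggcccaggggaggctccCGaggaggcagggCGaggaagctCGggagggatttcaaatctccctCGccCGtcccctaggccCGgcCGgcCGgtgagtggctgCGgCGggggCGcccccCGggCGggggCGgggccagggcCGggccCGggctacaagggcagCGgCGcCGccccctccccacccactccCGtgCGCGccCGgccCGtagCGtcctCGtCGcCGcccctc
More CpG were counted here than in 88.3% of promoters of the same length.

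Dnmt3b moved with 2 other measures across the libraries, shown in the plot of Dnmt3b beside primitive endoderm genes and Prdm14. The libraries with most Dnmt3b, M colonies 1 and 3, also had the highest sums of the 19 primitive endoderm genes, and V6.5 was lowest in both. Prdm14, a stem cell factor known in the mouse to hold down de novo methyltransferase genes, ran the other way, at 14.4, 23.9 and 17.8 CPM in M colonies 1, 2 and 3, 25.2, 28.8 and 25.3 CPM in GC colonies and 48.9 CPM in V6.5. It fell by 1.14 ± 0.18 on the log2 scale in the colonies against V6.5 (edgeR adjusted p = 6.68e-04). In M over GC colonies its change was -0.50 ± 0.15 (edgeR adjusted p = 0.0947), and -0.88 without M colonies 2 and 3. It passed without M colony 2 (edgeR adjusted p = 0.00740), with the replicate block (0.0174) and with no filter on low counts (7.54e-04). By DESeq2 it passed too (DESeq2 adjusted p = 0.0219). Of the 19 primitive endoderm genes, 17 rose and 0 fell in the colonies against V6.5 (median change 2.18), where 8.76% of all genes rose. In M against GC colonies 5 of the 19 rose and 0 fell (median 0.60), where 1.7% of all genes rose. These are levels in the same libraries, and the part of one in another was not tested.

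**Figure D3:**
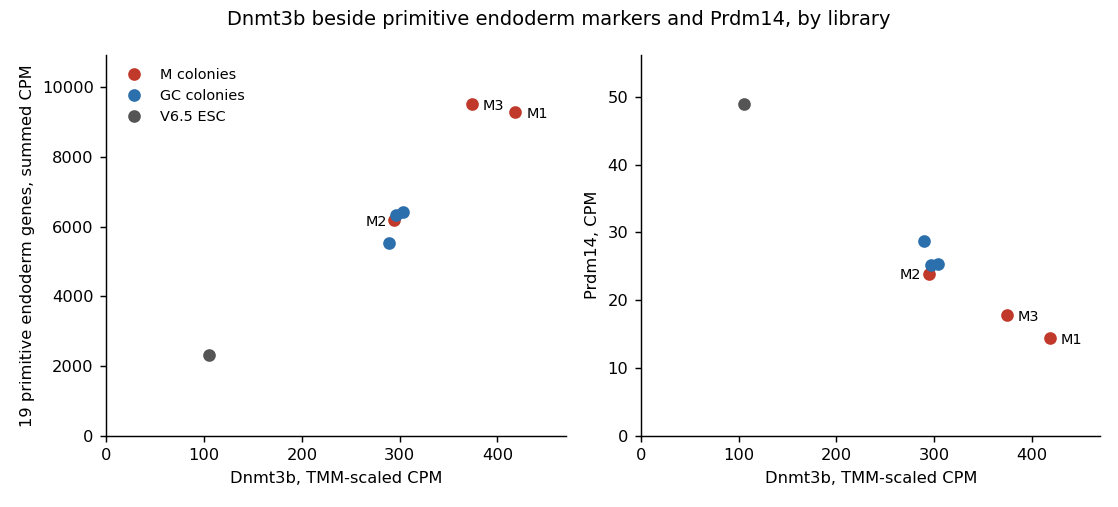
Level of Dnmt3b (horizontal axis, TMM-scaled CPM) against the summed CPM of 19 primitive endoderm genes (left panel) and the CPM of Prdm14 (right panel), 1 point per library, with the M colonies labelled by number. M colonies 1 and 3 lie at the high end of Dnmt3b with sums of 9280.2 and 9509.6 CPM, M colony 2 lies among the GC colonies in the left panel, and V6.5 has the lowest sum and the most Prdm14.

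Dnmt3a (chr12:3806007-3914443, plus strand), the de novo methyltransferase that persists in differentiated tissues, had 246, 245 and 252 CPM in M colonies, 249, 249.7 and 261 CPM in GC colonies and 169 CPM in V6.5. The 6 colonies lay close together and all above V6.5. The change was 0.57 ± 0.08 (edgeR adjusted p = 2.60e-04) for the colonies over V6.5, and -0.03 ± 0.06 for M over GC colonies (edgeR adjusted p = 0.836). The range of Dnmt3a among M colonies was 1.03-fold and among GC colonies 1.05-fold.

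Dnmt3l (chr10:78041947-78063622, plus strand), the cofactor without catalytic activity, had 426, 399.8 and 418 CPM in M colonies, 363, 363 and 328 CPM in GC colonies and 277 CPM in V6.5. The groups did not overlap: M colonies were highest, GC colonies next and V6.5 lowest. Against V6.5 the change was 0.46 ± 0.08 (edgeR adjusted p = 0.00184), with 0.58 ± 0.09 for M colonies (edgeR adjusted p = 5.57e-04) and 0.34 ± 0.09 for GC colonies (edgeR adjusted p = 0.0195), the last not passing without GC colony 2 (edgeR adjusted p = 0.0786). M colonies were 1.18-fold above GC colonies, a log2 change of 0.24 ± 0.06 that passed narrowly (edgeR adjusted p = 0.0469). It passed in none of the 6 fits that left out 1 colony (edgeR adjusted p up to 0.191), nor with upper quartile scaling (edgeR adjusted p = 0.0694). Without M colonies 2 and 3 the change was 0.28 and did not pass either.

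Dnmt3l shares 67 exon bases with Aire, a transcription factor gene on the opposite strand, and whether reads were counted by strand is not stated in these sources. Aire fell in M colonies, to 78.1, 83.7 and 75.8 CPM, against 116, 116 and 104 CPM in GC colonies, with 111 CPM in V6.5 (log2 change for M over GC -0.51 ± 0.07, edgeR adjusted p = 0.00168). It therefore differed in the direction opposite to Dnmt3l. The most upstream Dnmt3l promoter is printed as a contrast to that of Dnmt3b, again with CpG in capitals.
Dnmt3l chr10:78042037-78042336, plus strand: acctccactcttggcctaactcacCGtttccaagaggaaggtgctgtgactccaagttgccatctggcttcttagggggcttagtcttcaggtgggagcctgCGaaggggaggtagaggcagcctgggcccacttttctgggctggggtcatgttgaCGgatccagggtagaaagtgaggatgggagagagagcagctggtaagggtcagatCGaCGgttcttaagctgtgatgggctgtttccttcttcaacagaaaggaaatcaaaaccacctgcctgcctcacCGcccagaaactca
It has 6 CpG, and the other 2 Dnmt3l promoters have 4 and 3, all below the median of 7. The most upstream promoter of Dnmt3a has 46.

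The 3 genes kept different proportions. Per kilobase of exon, the ratio of Dnmt3b to Dnmt3a was 5.54, 3.91 and 4.83 in M colonies, 3.88, 3.78 and 3.80 in GC colonies and 2.03 in V6.5. The ratio of Dnmt3l to Dnmt3b was 1.99 ± 0.30 in M colonies, 2.03 ± 0.16 in GC colonies (SD, n = 3 each) and 4.50 in V6.5. Both ratios thus set all 6 colonies apart from V6.5, and the ranges of M and GC colonies met only for the second. Uhrf1 to Dnmt1 stayed between 2.12 and 2.27 in the colonies and was 2.39 in V6.5.

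Genes that regulate or guide de novo methylation were read next. Of 13, 1 rose and 0 fell in M over GC colonies, where 3.97% of all genes passed. It was Ehmt2, a histone methyltransferase that can recruit de novo methylation, with 306, 472 and 491 CPM in M colonies and 288, 289 and 267 CPM in GC colonies (0.59 ± 0.13, edgeR adjusted p = 0.0276). Without M colonies 2 and 3 its change was 0.12 (edgeR adjusted p = 0.705), and with 1 colony left out it passed only when that was M colony 1. DESeq2 called 4 of the 13, Prdm14 among them, but not Ehmt2. In the colonies over V6.5, 1 rose and 3 fell, where 8.76% of all genes rose and 7.56% fell. Mael, of the piRNA pathway that guides methylation to transposons in the male germ line, rose to 25.3 ± 2.78 CPM, against 14.7 CPM in V6.5. Piwil2, of the same pathway, fell to 26.5 ± 5.97 CPM, against 47.6 CPM. Kdm1a, a histone demethylase, fell to 321 ± 18.98 CPM, against 394 CPM, and Prdm14 was given above.

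The Tet genes did not move together. Tet1 (chr10:62804570-62908996, minus strand), the main Tet enzyme of mouse embryonic stem cells with Tet2, had 452, 470.4 and 479.9 CPM in M colonies, 430.1, 462 and 497 CPM in GC colonies and 522 CPM in V6.5. All colonies were below V6.5, but the change of -0.17 ± 0.08 did not pass (edgeR adjusted p = 0.195), and neither did M over GC colonies (0.01 ± 0.06, edgeR adjusted p = 0.961).

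Tet2 (chr3:133463679-133545139, minus strand) had 119, 153 and 133 CPM in M colonies, 104, 118 and 135 CPM in GC colonies and 178 CPM in V6.5. All 6 colonies were below V6.5, and the change of -0.50 ± 0.13 passed (edgeR adjusted p = 0.0180). By group it passed in GC colonies (-0.59 ± 0.14, edgeR adjusted p = 0.0126) and not in M colonies (-0.40 ± 0.14, edgeR adjusted p = 0.0669). M colonies did pass without M colonies 2 and 3 (-0.59, edgeR adjusted p = 0.0368), without M colony 2, GC colony 1 or GC colony 3 (up to 0.0459), by DESeq2 (0.0376), with the replicate block (0.0130) and with no filter (9.06e-04). The difference between M and GC colonies, tested directly, was 0.18 ± 0.10 and did not pass (edgeR adjusted p = 0.429). The Tet2 promoter has 57 CpG, more than 99.8% of promoters.

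Tet3 (chr6:83362373-83459084, minus strand), the Tet enzyme of the oocyte and of later differentiated cells, had 19.13, 19.9 and 21.3 CPM in M colonies, 15.1, 14.7 and 18.7 CPM in GC colonies and 9.45 CPM in V6.5. The 3 groups did not overlap. The colonies were above V6.5 by 0.93 ± 0.17 on the log2 scale (edgeR adjusted p = 0.00243), and M over GC colonies gave 0.31 ± 0.12 (edgeR adjusted p = 0.186). The ratio of Tet2 to Tet3 per kilobase was 6.13 to 7.60 in M colonies, 6.82 to 7.93 in GC colonies and 18.7 in V6.5.

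Tdg (chr10:82629828-82650799, plus strand) encodes the glycosylase that removes oxidized methylcytosine. It had 80.4, 74.9 and 67.9 CPM in M colonies, 34.9, 34.3 and 37.2 CPM in GC colonies and 68.0 CPM in V6.5. All M colonies lay well above all GC colonies, and V6.5 was at the level of the M colonies. M over GC colonies gave 1.07 ± 0.08 (edgeR adjusted p = 1.27e-05), and 1.18 ± 0.10 without M colonies 2 and 3 (edgeR adjusted p = 3.08e-04). GC colonies fell by 0.94 ± 0.11 on the log2 scale against V6.5 (edgeR adjusted p = 9.36e-05), and M colonies differed by 0.13 ± 0.11, which did not pass (edgeR adjusted p = 0.501).

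A near-identical copy of Tdg moved the other way. Gm9855 is a processed pseudogene at chr10:42054113-42055306, minus strand, that holds the coding part of Tdg, with 9 differences over 1194 aligned bases (99.2% identity). It had 18.5, 19.6 and 16.2 CPM in M colonies, 34.2, 31.1 and 33.9 CPM in GC colonies and 18.0 CPM in V6.5. M colonies were below GC colonies by a log2 change of -0.87 ± 0.10 (edgeR adjusted p = 3.94e-04), and GC colonies were above V6.5 by 0.88 ± 0.15 (edgeR adjusted p = 0.00173). Of 1045 windows of 150 bases, the read length, in the aligned part, 607 (58.1%) are the same in both genes, with a longest shared run of 756 bases. The Tdg transcript aligned has 2959 bases, and its remaining bases lie outside these windows. Windows stand for single reads, and read pairs were not examined. No source used here says how reads that fit more than 1 place were counted.

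The stretch below shows how little separates them. It is 120 bases of Tdg, positions 1143 to 1262 counted from the start of its transcript, in 2 exon blocks at chr10:82648009-82648078 and chr10:82648578-82648627, with the aligned Gm9855 bases at chr10:42054206-42054325. Capitals mark the 5 differences, T1154C, T1217C, G1245A, A1251G and G1262A, written as the Tdg base, the position and the Gm9855 base.
Tdg, plus strand: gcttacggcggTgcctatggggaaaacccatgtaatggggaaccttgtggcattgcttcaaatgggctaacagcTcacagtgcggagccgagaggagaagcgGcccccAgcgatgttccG
Gm9855, minus strand: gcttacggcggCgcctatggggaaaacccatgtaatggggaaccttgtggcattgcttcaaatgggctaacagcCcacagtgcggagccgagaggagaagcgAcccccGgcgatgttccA
The other 4 of the 9 differences lie elsewhere in the alignment.

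Summed over Tdg, Gm9855 and the pseudogenes Tdg-ps and Gm5597 (98.7% and 99.3% identical, each at most 1.41 CPM), M colonies had 101, 95.9 and 84.7 CPM, GC colonies 70.4, 66.7 and 71.6 CPM and V6.5 87.1 CPM. M colonies remained above GC colonies, by 0.43 ± 0.08 (edgeR adjusted p = 0.00704), a smaller change than for Tdg alone. The summed change no longer passed for GC colonies over V6.5 (-0.32 ± 0.11, edgeR adjusted p = 0.0631) or for all colonies over V6.5 (-0.11 ± 0.10, edgeR adjusted p = 0.529), where Tdg alone gave -0.41 ± 0.10 (edgeR adjusted p = 0.0155, and 0.0510 without M colonies 2 and 3). Of the summed counts, Tdg held 79.8%, 78.1% and 80.2% in M colonies, 49.6%, 51.3% and 51.9% in GC colonies and 78.1% in V6.5. That share was 28.4 percentage points higher in M than in GC colonies (two-sided exact permutation p = 0.1, the smallest that 3 against 3 allows). The test gives this p whenever 2 such groups do not overlap, which had been seen beforehand, so it adds nothing to the values. What shifts the share between the 2 genes was not tested. Tdg also shares 367 exon bases with Glt8d2 on the opposite strand, which had at most 0.57 CPM in any library.

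**Figure D4:**
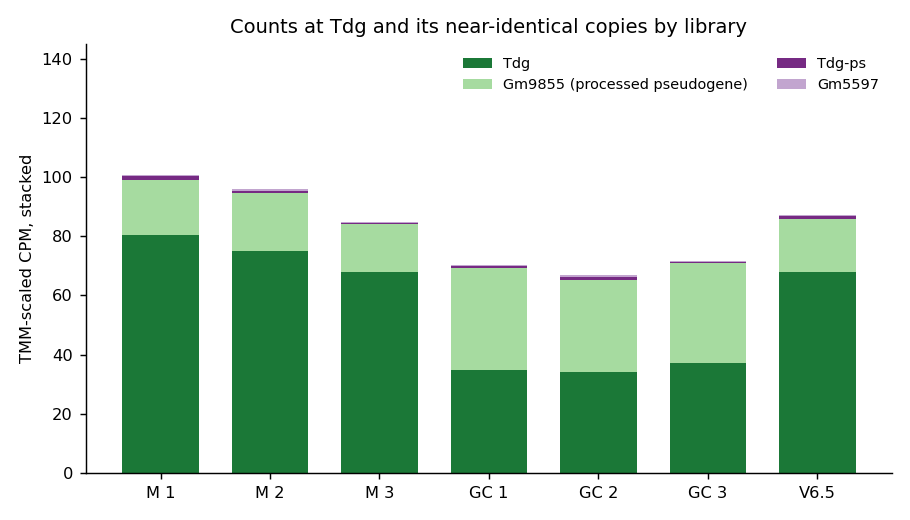
Counts at Tdg and its pseudogenes Gm9855, Tdg-ps and Gm5597 in TMM-scaled CPM (stacked bars from 0), 1 bar per library of M colonies, GC colonies and V6.5. In the GC colonies Tdg and Gm9855 have near equal parts of a total of 66.7 to 71.6 CPM, and in the M colonies and V6.5 Tdg takes 78.1% to 80.2%.

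The Tdg promoter is printed because of this difference between colony groups. Capitals mark its 26 CpG.
Tdg chr10:82629588-82629887, plus strand: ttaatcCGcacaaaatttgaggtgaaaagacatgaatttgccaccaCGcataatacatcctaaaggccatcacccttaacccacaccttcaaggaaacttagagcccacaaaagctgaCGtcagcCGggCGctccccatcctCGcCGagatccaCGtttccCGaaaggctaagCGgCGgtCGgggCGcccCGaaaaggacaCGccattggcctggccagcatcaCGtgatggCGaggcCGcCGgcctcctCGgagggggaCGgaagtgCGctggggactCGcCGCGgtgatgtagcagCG
This window holds CACGTG, the E-box bound by Myc among other factors, as do 1 window each of Dnmt3l and Dnmt3a and 7.15% of all promoters. The motif reads the same on both strands. Gm9855 lies elsewhere on the chromosome and does not carry this window.

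Other genes of demethylation and repair were counted beside Tet and Tdg. Of 23, 0 rose and 1 fell in M over GC colonies: Apobec3, a cytidine deaminase, at 172, 169 and 153 CPM in M colonies and 215, 229 and 213 CPM in GC colonies (-0.41 ± 0.06, edgeR adjusted p = 0.00329, and 0.118 without M colonies 2 and 3). In M over GC colonies 3.97% of all genes passed. In the colonies over V6.5, 1 rose and 2 fell, where 16.3% of all genes passed. Gadd45g, a stress-induced gene linked to DNA demethylation, rose to 31.7 ± 2.58 CPM, against 13.6 CPM in V6.5 (1.22 ± 0.15, edgeR adjusted p = 1.37e-04). Parp1, which signals strand breaks, fell to 747 ± 60.1 CPM, against 1027 CPM, and Ung, the uracil glycosylase, to 122 ± 9.25 CPM, against 157 CPM. Ung did not pass without M colonies 2 and 3 (edgeR adjusted p = 0.0655) or without GC colony 2 (0.0528). The pseudogene Tdg-ps counts among the 23.

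Genes listed as readers of DNA methylation, not all of which bind methylated DNA, and genes that supply methyl groups come last in the pathway. Of 10 readers, 0 passed in M over GC colonies by edgeR, where 3.97% of all genes did (0 by DESeq2, 1 by limma-voom). At an unadjusted edgeR p under 0.05, 1 was lower, with no share of all genes given at that threshold. Against V6.5, where 16.3% of all genes passed, 2 of the 10 rose, Zbtb4 (6.92 ± 0.605 CPM in the colonies, against 3.48 CPM) and Mbd2 (32.0 ± 2.55 CPM, against 23.2 CPM), and 1 fell, Ctcf (169 ± 7.06 CPM, against 204 CPM), which binds DNA better when it is not methylated. Ctcf did not pass without M colonies 2 and 3 (edgeR adjusted p = 0.103), without M colony 2, M colony 3, GC colony 1 or GC colony 2 (up to 0.101), or with upper quartile scaling. Leaving out M colony 3, GC colony 1 or GC colony 2 ended the call of Mbd2 (highest edgeR adjusted p = 0.0655), as did limma-voom. Of 16 genes of one-carbon metabolism and of the Tet cofactor, 15 could be tested in M over GC colonies, where 0 rose and 2 fell, beside 3.97% of all genes. These were Idh2, a mitochondrial source of alpha-ketoglutarate, the cofactor of Tet enzymes (-0.35 ± 0.08, edgeR adjusted p = 0.0233), and Mtrr, which keeps methionine synthase active (-0.30 ± 0.07, edgeR adjusted p = 0.0285). Idh2 passed in 2 of the 6 fits that left out 1 colony, those without M colony 2 or GC colony 3, and otherwise reached up to 0.121. Mtrr passed in 1 of 6, that without GC colony 1, and not without M colonies 2 and 3 (edgeR adjusted p = 0.339). Against V6.5, 2 of the 16 rose and 3 fell. Gldc, of glycine cleavage, rose to 279 ± 30.9 CPM, against 179.6 CPM, and Mat2a, which makes the methyl donor S-adenosylmethionine, rose to 204 ± 12.3 CPM, against 153 CPM. Shmt2 fell to 291 ± 16.2 CPM, against 447 CPM, Idh2 to 164 ± 23.7 CPM, against 232 CPM, and Tdh, outside the rule for named genes, to 221 ± 14.5 CPM, against 266 CPM.

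Germline genes whose promoters are known in the mouse to be silenced by methylation went both ways. Of 30, 29 could be tested, and of all genes 3.97% passed in M over GC colonies. In M over GC colonies 1 rose (Ddx4, 0.52 ± 0.11, edgeR adjusted p = 0.0158) and 2 fell (Tuba3a, -0.79 ± 0.12, edgeR adjusted p = 0.00208, and Fkbp6, -0.65 ± 0.16, edgeR adjusted p = 0.0362). None of the 3 passed without M colonies 2 and 3 (edgeR adjusted p = 0.466, 0.0827 and 0.459). With 1 colony left out, Ddx4 failed without M colony 2, M colony 3 or GC colony 2 (up to 0.102) and Fkbp6 without those or GC colony 1 (up to 0.220). Over V6.5, 7 of 29 rose and 7 fell, with a median change of 0.07, where 8.76% of all genes rose and 7.56% fell. The X-linked homeobox gene Rhox5 rose most, to 98.6 ± 17.9 CPM in the colonies, against 11.9 CPM in V6.5 (3.04 ± 0.21, edgeR adjusted p = 2.06e-06). Tex13b was at 1.52 ± 0.456 CPM, against 0.268 CPM, Cyct at 36.6 ± 3.91 CPM, against 17.8 CPM, and Taf7l at 5.26 ± 0.654 CPM, against 2.58 CPM. RNA does not show the methylation state of these promoters, which was not measured in the files used here.

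Levels of the 9 genes can be set against each other only per length, as CPM per kilobase of exon. In M colonies Dnmt3l was highest at 139 ± 4.53, followed by Uhrf1 at 113 ± 5.26, Dnmt3b at 71.0 ± 12.3, Dnmt1 at 50.2 ± 1.80, Tet1 at 30.2 ± 0.932, Dnmt3a at 14.9 ± 0.221, Tdg at 13.9 ± 1.17, Tet2 at 7.99 ± 1.03 and Tet3 at 1.21 ± 0.0654 CPM per kilobase (SD, n = 3). Among those neighbours, the values of single colonies overlapped for Dnmt3a and Tdg alone. In GC colonies the order was Dnmt3l at 118 ± 6.66, Uhrf1 at 114 ± 6.505, Dnmt3b at 58.1 ± 1.42, Dnmt1 at 51.6 ± 4.76, Tet1 at 30.0 ± 2.16, Dnmt3a at 15.2 ± 0.400, Tet2 at 7.05 ± 0.897, Tdg at 6.59 ± 0.287 and Tet3 at 0.969 ± 0.131 CPM per kilobase (SD, n = 3). There, Dnmt3l and Uhrf1 overlapped, as did Dnmt3b and Dnmt1, and Tet2 and Tdg. In V6.5 the order was Uhrf1 at 133, Dnmt3l at 92.9, Dnmt1 at 55.5, Tet1 at 33.8, Dnmt3b at 20.6, Tdg at 12.7, Tet2 at 10.6, Dnmt3a at 10.2 and Tet3 at 0.566 CPM per kilobase. Dnmt3b thus stood above Dnmt1 and Tet1 in both kinds of colony and below them in V6.5. With the longest transcript as the length, the order changed only for Tet2 and Tdg in V6.5, which swapped places.

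**Figure D5:**
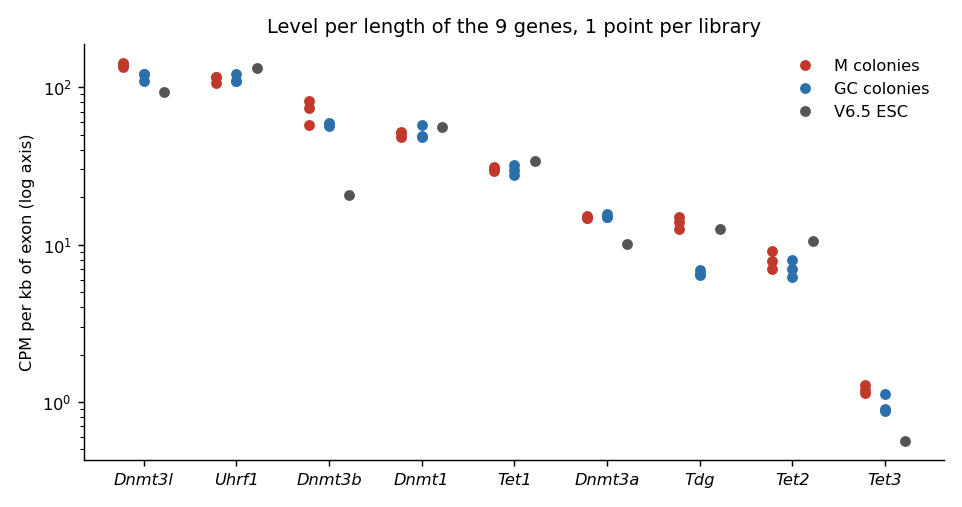
Level of the 9 genes in CPM per kilobase of exon on a log axis, 1 point per library, with M colonies, GC colonies and V6.5 side by side for each gene, ordered by the mean of M colonies. Dnmt3l and Uhrf1 lie near 100 and Tet3 near 1, and V6.5 stands clearly below the colonies for Dnmt3b.

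The spread among sister colonies was read against other genes. The median SD of log2 CPM over all tested genes was 0.15 in each colony group, and 0.07 and 0.08 in M and GC colonies for the most highly counted genes (those above the upper quartile). Among M colonies only Dnmt3b (0.26) and Tet2 (0.18) were above the median of all tested genes, and among GC colonies Tet2 (0.18) and Tet3 (0.19). Against the more highly counted genes, Tdg (0.12) and Tet3 (0.08) also lay above in M colonies, and Dnmt1 (0.13), Tet1 (0.10), Dnmt3l (0.08) and Uhrf1 (0.08) in GC colonies.

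For the 2 genes that passed between the colony groups, the genes most like them were sought by Pearson's r of log2 CPM over the 7 libraries, among 14745 genes with a mean of at least 1 CPM. For Dnmt3l these were Ufm1 (r = 0.988), Plxnc1 (r = 0.987) and Tmem234 (r = 0.987), and the most alike member was Dnmt3b (r = 0.894). For Tdg they were Polr2k (r = 0.989), Stip1 (r = 0.986) and Hjurp (r = 0.986), and the most alike member was Tet2, at r = 0.537. With 7 libraries in 3 groups that stand apart, such values describe a shared order of groups and nothing more.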

How the data were processed

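Poly-A RNA of 7 cultures was sequenced in read pairs of 150 bases. The authors deposited raw read counts per gene for all libraries, made with STAR 2.7.10a and featureCounts 2.0.6 on mm10 (GRCm38), per the submitters' processing notes. The labels disagree on whether the kit kept strand, and on the sequencer model. Even numbers made up 68.5% to 72.2% of counts from 1 to 49 in a library, against 49.5% to 50.9% of high counts, and an alternative with all counts halved was run.

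Of 54838 genes, 54809 matched GENCODE M21 and 29 did not. Counts were tested with edgeR 4.0.16 in R 4.3.3 (filterByExpr, TMM scaling, quasi-likelihood test, two-sided, Benjamini-Hochberg over all tested genes, threshold 0.05), with the 6 colonies for M over GC colonies and all 7 libraries for comparisons with V6.5. CPM values were computed from those counts. Alternatives used other scalings and filters, DESeq2 1.42.0, limma 3.58.1 (voom), counts halved, a replicate block, colonies left out, and, chosen after seeing the data, the counts of Tdg and Uhrf1 summed with their copies. Copies were found with blastn 2.17.0. The edgeR, DESeq2 and limma-voom fits of M over GC colonies and of all colonies over V6.5 were run on simulated data, with the outcome not given here. The simulated V6.5 library had the spread of the colonies, so this cannot show whether the real one varies like them.

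The members and gene lists were chosen with earlier results of these data known. Named genes are the 9 members, all pathway genes past the threshold in M over GC colonies, up to 4 of each list with the largest change past the threshold against V6.5, a few always named, and overlapping genes or copies of members. Other genes were named only as markers. Colonies are separate clones, but their mice are not given, so p-values measure the spread between clones. Intervals and floors cover counting error only. The design had foreseen protein sequences, which were not used here.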

Additional observations from a re-analysis of the deposited data

Results flagged for a closer look

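The M colonies and the GC colonies were each set against V6.5, for the members, Gm9855 and Aire. Other copies and overlapping genes were not screened here. Of the genes screened, 4 had a difference between these changes that passed the edgeR test of M over GC colonies. That test is the test of the difference itself, since V6.5 drops out of it. Tdg differed by 1.07 on the log2 scale (edgeR adjusted p = 1.27e-05), higher in 3 of 3 M colonies than in every GC colony. Its pseudogene Gm9855 differed by -0.87 (edgeR adjusted p = 3.94e-04), lower in 3 of 3 M colonies than in every GC colony. Dnmt3l differed by 0.24 (edgeR adjusted p = 0.0469), higher in 3 of 3, and Aire, which overlaps it on the opposite strand, by -0.51 (edgeR adjusted p = 0.00168), lower in 3 of 3. Groups of 3 are too small for the test of single outlying samples.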

How the results depend on the processing

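Over all alternatives, 541 of the members' changes kept their direction and side of the threshold, 12 lost a call, 14 gained one and 9 changed sign. In M over GC colonies, 721 genes passed, against 1318 with no filter on low counts, 1110 by DESeq2, 373 without M colonies 2 and 3, and 244 to 814 with 1 colony left out. Of the members, 2 passed there, 3 with no filter, 1 with upper quartile scaling and 1 to 2 with 1 colony left out. The changes that reversed had not passed in the first place. In M over GC colonies these were Tet1 with upper quartile scaling (-0.0055), and, without M colonies 2 and 3, Uhrf1 (0.026), Tet1 (-0.038), Tet2 (-0.0057), Dppa3 (0.22) and Zfp57 (-0.15), with Uhrf2 at -0.017 for the colonies over V6.5. With 1 colony left out, M over GC changes ran from -0.039 to 0.069 for Tet1, -0.082 to 0.042 for Dnmt1, -0.038 to 0.039 for Uhrf1, -0.28 to 0.0044 for Dppa3 and -0.015 to 0.20 for Zfp57. Likewise Uhrf2 ran from -0.0022 to 0.024 for the colonies over V6.5, Gm9855 from -0.048 to 0.088 for M colonies over V6.5 and Aire from -0.0068 to 0.074 for GC colonies over V6.5. The cause was not tested. With no filter, the median change of all genes was 0.17 for the colonies over V6.5, against 0.0153 with it. Deviations from the group mean correlated at 0.073, 0.075 and 0.164 between same-numbered M and GC colonies, and at -0.135 to 0.062 between the others. Deviations of 3 colonies from their own mean are not independent, so these values cannot decide whether the numbers pair the colonies. With the replicate block 963 genes passed in M over GC colonies, with 2 members among them, and Tet2 passed in M colonies over V6.5 (edgeR adjusted p = 0.0130). Tet3 had the fewest counts of the members.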
